A study of Mus musculus with 2 samples.

Results

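Immature neurons and neuroblasts were examined among single cells of the hippocampus of 5xFAD mice, a transgenic model of Alzheimer's disease whose transgenes are driven by the mouse Thy1 promoter. A barcode was chosen if it held at least 3 UMIs (unique molecular identifiers, 1 per captured transcript) in total of Igfbpl1, Sox11, Dcx, Draxin, Nhlh1, Neurod1, Neurod2 and Eomes. It also had to hold under 1% of its UMIs from the astrocyte genes Slc1a2, Slc1a3, Gja1 and Aqp4, under 2 UMIs from the Cajal-Retzius genes Reln, Trp73 and Lhx1os, and under 10% from the choroid plexus gene Ttr. The rule chose 144 of 24906 cells with at least 200 genes and at most 20% mitochondrial UMIs. These were 110 of 13271 cells in the library of mice given AAV9-GFAP::NeuroD1-P2A-GFP (the NeuroD1 sample) and 34 of 11635 in that of mice given AAV9-GFAP::GFP (the GFP sample).

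Both vectors are adeno-associated viruses of serotype 9 in which a GFAP promoter, active mainly in astrocytes, drives the insert. The first encodes the neuronal transcription factor NeuroD1 joined to green fluorescent protein by a self-cleaving peptide, and the second the fluorescent protein alone. The labels give 5xFAD as the strain of both groups and a time of 6 months, without saying from when it was counted, and per the design text each group had 3 mice, taken 3 weeks after injection. Each group was 1 sample and 1 library, and the sources used here do not say how its mice were divided. No test between the groups was therefore possible. Every interval is a 95% interval that covers counting error only, and each difference between the libraries is a difference between 2 libraries.

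In the adult hippocampus, new neurons arise in the dentate gyrus. Radial glia-like stem cells give rise to dividing intermediate progenitors that express Neurog2 and Eomes, which become neuroblasts marked by Neurod1, Igfbpl1, Sox11 and Dcx. These pass through a Calb2 stage as immature granule cells with the granule lineage factor Prox1, and mature granule cells express Calb1 instead. NeuroD1 is a basic helix-loop-helix factor that is needed for the survival and maturation of newborn granule cells, and it is the factor delivered here to astrocytes.

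The libraries differed in depth. Kept cells had a median of 2599 UMIs in the NeuroD1 sample and 1195 in the GFP sample, and the chosen cells a median of 2624 (550 to 12123) and 1439 (555 to 10420). Their counts summed to 346112 and 61953 UMIs. The median mitochondrial share of the chosen cells was 1.93% and 4.12%. Of the barcodes kept, 98 occurred in both libraries, and 0 of the chosen cells carried such a barcode.

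**Figure D1:**
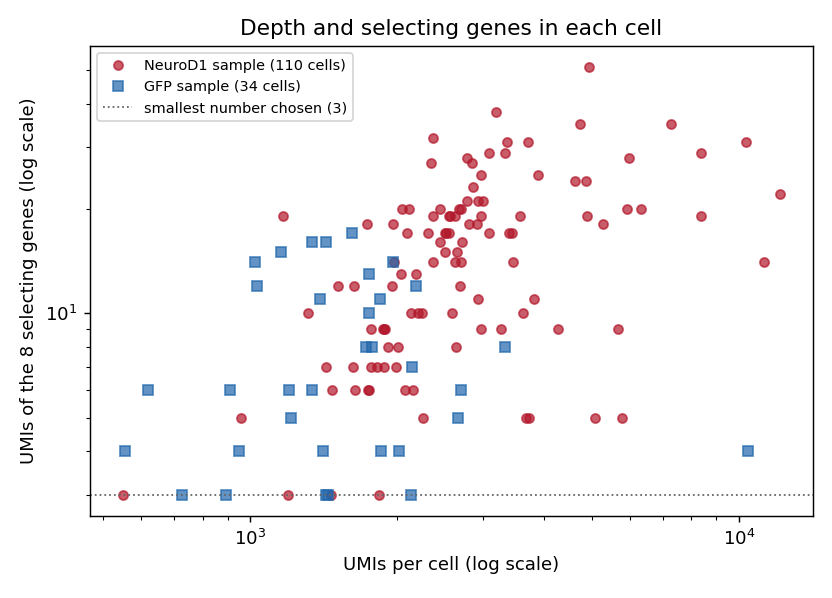
Each point is 1 chosen cell, with its total UMIs on the x axis and its UMIs of the 8 selecting genes on the y axis, both on log scales; circles are the NeuroD1 sample, squares the GFP sample, and the dotted line marks the 3 UMIs required. The median was 15.5 UMIs of these genes in the 110 cells of the NeuroD1 sample and 6 in the 34 of the GFP sample, and 1 cell of the GFP sample stands alone at 10420 UMIs.

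The selecting genes set the cells apart by construction, so their levels describe the choice and test nothing. Igfbpl1, a secreted protein related to insulin-like growth factor binding proteins, was the most abundant of them, with 861 UMIs in 107 of 110 cells of the NeuroD1 sample and 112 in 29 of 34 of the GFP sample. As UMIs per 1000000 summed UMIs (CPM), this was 2488 (2324 to 2660) and 1808 (1489 to 2175). Neurod1 followed with 1011 CPM (908.1 to 1123) and 1243 CPM (980.9 to 1553), and Sox11, a transcription factor of newborn neurons, with 811.9 (719.7 to 912.6) and 629.5 (447.6 to 860.6). The remaining selecting genes were sparse. Dcx, a microtubule-associated protein of migrating neurons, had 55 UMIs in 36 cells and 7 in 6 cells, and Eomes had 57 in 30 cells and 10 in 9.

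The threshold divided cells that differed by 1 UMI. Among cells that met the other conditions, 18 of the NeuroD1 sample and 10 of the GFP sample had 2 UMIs of the selecting genes and stayed outside, and 4 and 5 had exactly 3 and were inside. At least 10 UMIs were found in 77 of 110 and 12 of 34 cells. Without Igfbpl1, 11 cells of each library would have dropped under 3 UMIs, and without Neurod1 3 and 4. The label was checked with Igfbpl1, Sox11, Dcx, Calb2 and Neurod1, of which only Calb2 stands outside the rule. All 5 were seen in 20 cells of the NeuroD1 sample and 3 of the GFP sample, at least 1 in all but 1 cell of each.

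Chosen cells were more frequent in the NeuroD1 sample. They made up 0.829% (0.682 to 0.998) of its kept cells and 0.292% (0.203 to 0.408) of those of the GFP sample, a ratio of 2.84 (1.92 to 4.30). With every cell thinned to 500 UMIs before the rule was applied, 47 and 13 cells met it, a ratio of 3.17. With Neurod1 left out of the rule, 107 and 30 cells met it, a ratio of 3.13. The libraries also differed in their other cells, and these shares are not independent of each other. Microglia made up 10.6% of the NeuroD1 sample and 39.4% of the GFP sample, choroid plexus cells 8.82% and 2.25%, and oligodendrocyte precursors 0.693% and 0.189%, a ratio of 3.67 (2.28 to 6.13). Of 10 other classes of cells defined by marker genes, 7 had a larger share in the NeuroD1 sample and 2 a ratio at least as high as that of the chosen cells. Among cells outside the choroid plexus and microglia classes, the ratio for the chosen cells was 2.05. The part of tissue sampling in the ratio was not tested. Mature neurons were scarce in both libraries, with 9 cells (0.0678%) and 101 cells (0.868%). Their ratio of 0.0781 (0.0347 to 0.154) was opposite in direction to that of the chosen cells.

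The chosen cells shared a programme of young neurons beyond the genes of the rule. Of 524 genes with at least 20 UMIs in their sum in each library, 160 (30.5%) were at least 2-fold higher in CPM than in all other kept cells of both libraries, and 22 were at least 2-fold lower. The 160 include the selecting genes Igfbpl1, Sox11 and Neurod1. Calb2, the calcium-binding protein calretinin, led the genes outside the rule, with 956.3 CPM against 9.03 in the other cells of the NeuroD1 sample and 1001 against 2.77 in those of the GFP sample. Because cells were chosen by genes that neurons share, these ratios describe the cells and are no test.

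**Figure D2:**
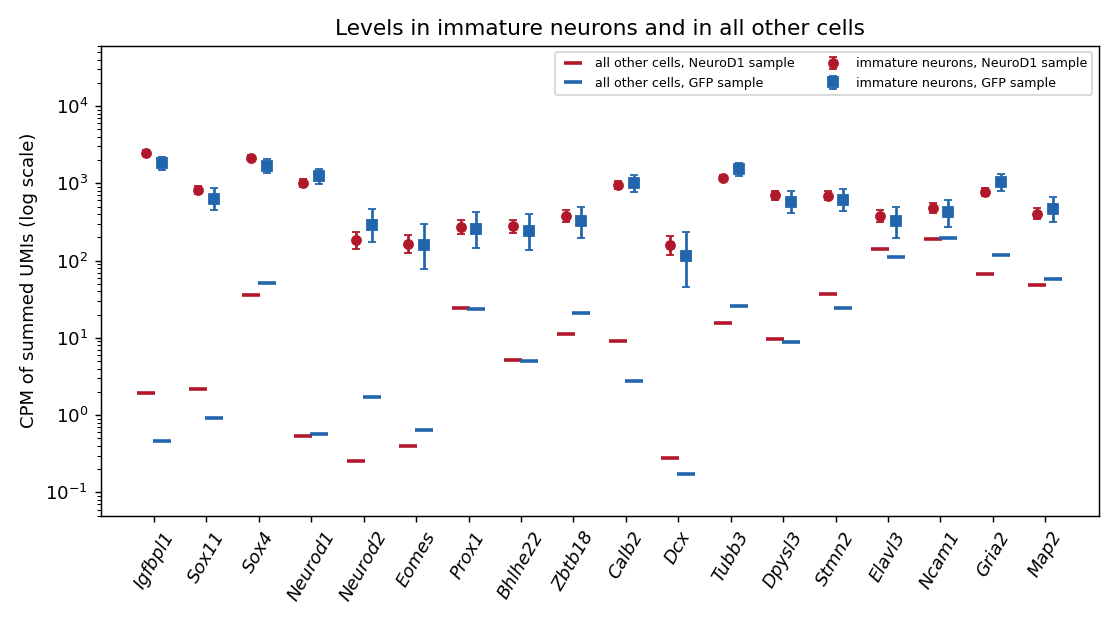
Levels of 18 genes in the chosen cells (points with 95% Poisson intervals) and in all other kept cells (dashes), in CPM of the summed UMIs on a log scale, for the NeuroD1 sample (red) and the GFP sample (blue). Neurod1, Neurod2, Igfbpl1, Sox11, Eomes and Dcx chose the cells; Calb2, Sox4 and Tubb3 did not, and were at 956.3, 2138 and 1167 CPM in the NeuroD1 sample.

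Genes of the cytoskeleton of growing neurites formed the largest shared group. Of the 22 genes listed for it, 21 stood outside the rule, 13 of these had enough UMIs to be read in both libraries, and 12 were at least 2-fold higher in both. Tubb3, the neuronal beta-tubulin, was at 1167 CPM (1056 to 1287) in the NeuroD1 sample and 1517 CPM (1226 to 1857) in the GFP sample, 75.5 and 57.9 times its level in other cells. Dpysl3, which regulates growth cone collapse and actin bundling, was 72.5 and 65.0 times higher. Stmn2 and Stmn3, which bind tubulin, were 18.5 and 25.5 times and 22.8 and 34.1 times higher, and Dbn1, an actin-binding protein of dendrites, 25.3 and 24.0 times. Tuba1a had the highest level of those named here, 8737 CPM and 7070 CPM, and was seen in every chosen cell.

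Transcription factors of young forebrain neurons were also shared. Sox4, which acts with Sox11 in newborn neurons, had 740 UMIs in 105 of 110 cells and 104 UMIs in 29 of 34, which was 58.8 and 32.5 times its level in other cells. Zbtb18, a zinc finger repressor of developing neurons, was 34.5 and 15.3 times higher, and Nfib, a nuclear factor I protein, 14.7 and 19.5 times. Prox1 was at 271.6 CPM (219.5 to 332.4) in 59 cells of the NeuroD1 sample and 258.3 CPM (147.6 to 419.4) in 10 cells of the GFP sample. Bhlhe22, a factor of excitatory neurons, was at 277.4 and 242.1 CPM. Tbr1, a factor of postmitotic glutamatergic neurons, had 28 UMIs in 23 cells and 4 in 3.

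Receptor, membrane and some synaptic genes of neurons were present, while Slc17a7, Slc12a5 and Calb1 were at or near 0 in the NeuroD1 sample. Of the 26 genes listed for mature neurons and synapses, 7 had enough UMIs to be read, and Map2, Snap25, Syn2, Syp, Cplx2 and Camk2b were at least 2-fold higher in both libraries than in other cells. Snap25 had enough UMIs in the GFP sample only through its cell with 10420 UMIs. That cell held 37 of the 42 Snap25 UMIs, with 5 in the other chosen cells, so Snap25 is not read as shared. At least 1 UMI of the list was found in 109 of 110 and 32 of 34 cells. Gria2, an AMPA receptor subunit, was at 771.4 CPM in 87 of 110 cells and 1033 CPM in 18 of 34. The adhesion gene Ncam1 was at 479.6 and 419.7 CPM, and Chl1, a neural adhesion molecule, was 41.0 and 22.5 times its level in other cells. Without the cell with 10420 UMIs, Chl1 was at least 2-fold higher in the NeuroD1 than in the GFP sample. The value of 22.5 therefore rests mostly on that cell, and Chl1 is not read as shared. Enzymes that add polysialic acid to Ncam1 were sparse, with 15 and 2 UMIs of St8sia2 and 13 and 0 of St8sia4. Slc17a7, the vesicular glutamate transporter of mature excitatory neurons, had 4 UMIs in 3 cells of the NeuroD1 sample. In the GFP sample it had 18, of which 16 lay in 1 cell. Slc12a5, the chloride exporter of mature neurons, had 0 UMIs in both libraries, where a count of 0 allows up to 8.67 and 48.4 CPM. Calb1 had 0 UMIs in the NeuroD1 sample and 3 UMIs in 1 cell of the GFP sample.

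Few cells carried 3 or more UMIs of genes of GABAergic precursors. Of the factors of the glutamatergic lineage, Neurod1, Neurod2, Eomes or Tbr1 was found in 98 of 110 and 25 of 34 cells, but the first 3 of these chose the cells, and Tbr1, outside the rule, was in 23 and 3. Cells with at least 3 UMIs of Dlx1, Dlx2, Dlx5, Dlx6, Dlx6os1, Sp8, Sp9, Gad1 and Gad2, genes of GABAergic precursors of the ventral forebrain, numbered 3 and 4. None of these 3 and 4 cells had a UMI of Neurod1, Neurod2 or Eomes. The glutamatergic count needed only 1 UMI, so the counts of the lineages are not alike. At least 1 UMI of a longer list of GABAergic precursor genes was seen in 41 of 110 and 16 of 34 cells, and at least 3 in 6 and 6. For genes of GABAergic interneurons these were 53 and 10 cells, and 11 and 3.

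The cells differed among themselves in genes of different stages of differentiation. Leiden clustering of the 144 cells gave 5 sub-clusters, and the genes that define them are given as a description. Sub-cluster 0 was the largest, with 64 cells of the NeuroD1 sample and 11 of the GFP sample, among them its cell with 10420 UMIs. Sub-cluster 0 held most of the later genes. Calb2 was at 1821 CPM there, in 59 of 75 cells, and at 97.3 CPM in 2 of 31 cells of sub-cluster 1. Neurod1 was at 1592 and 235.2 CPM, Rtn1, a protein of the endoplasmic reticulum abundant in neurons, at 3036 and 867.8 CPM, and Neurod2 at 365.5 and 64.9 CPM.

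Sub-cluster 1, with 23 and 8 cells, held genes of progenitors together with genes of astrocytes. Apoe, Slc1a3 and Slc1a2, all abundant in astrocytes, were among its 10 leading genes. Apoe was at 13407 CPM against 707.4 CPM in sub-cluster 0, and Clu at 7194 against 224.0 CPM. Clu was seen in 18 of the 31 cells of sub-cluster 1, and 3 of these held 312, 298 and 118 of its 887 UMIs. Ccnd2, a cyclin of dividing neural progenitors, was at 2206 CPM against 135.6 CPM in sub-cluster 0. Fabp7, a fatty acid-binding protein of radial glia, was at 478.5 against 11.8 CPM, Neurog2 at 235.2 against 5.90 CPM and Eomes at 283.9 against 53.1 CPM. The Notch target Hes5 was seen in 8 of its 31 cells, at 137.9 CPM, and in 1 of the 75 cells of sub-cluster 0. Fabp7 and Hes5 were higher still in astrocytes of the NeuroD1 sample, at 918.1 and 332.4 CPM, whereas Neurog2 had 0 UMIs in the astrocytes of both libraries. Igfbpl1 differed less, at 1906 and 2800 CPM. The astrocyte gene list made up 1.80% of the UMIs of sub-cluster 1 and 0.0814% of those of sub-cluster 0.

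Cell cycle genes led sub-cluster 3, with 5 cells of the NeuroD1 sample and 2 of the GFP sample. Top2a, which untangles DNA at mitosis, was at 1757 CPM in all 7 cells and the proliferation gene Mki67 at 955.3 CPM, and both had 0 UMIs in sub-clusters 0, 2 and 4. Over all chosen cells, 9 and 3 had at least 3 UMIs of 11 mitotic genes. Each of these had an Igfbpl1 UMI, 5 and 1 had a Neurod1 UMI, and 0 and 0 had a Calb2 UMI, while 66 of 110 and 15 of 34 of all chosen cells had one. Calb2 and Neurod1 occurred together in 61 and 13 cells, Calb2 and Eomes in 5 and 3. Sub-cluster 2, with 14 and 1 cells, had Calb2 at 714.1 CPM, Nhlh1, a helix-loop-helix factor of early postmitotic neurons, at 357.1 CPM and Sox11 at 1227 CPM, and lay between sub-clusters 0 and 1 in Calb2 and in Fabp7, at 111.6 CPM.

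**Figure D3:**
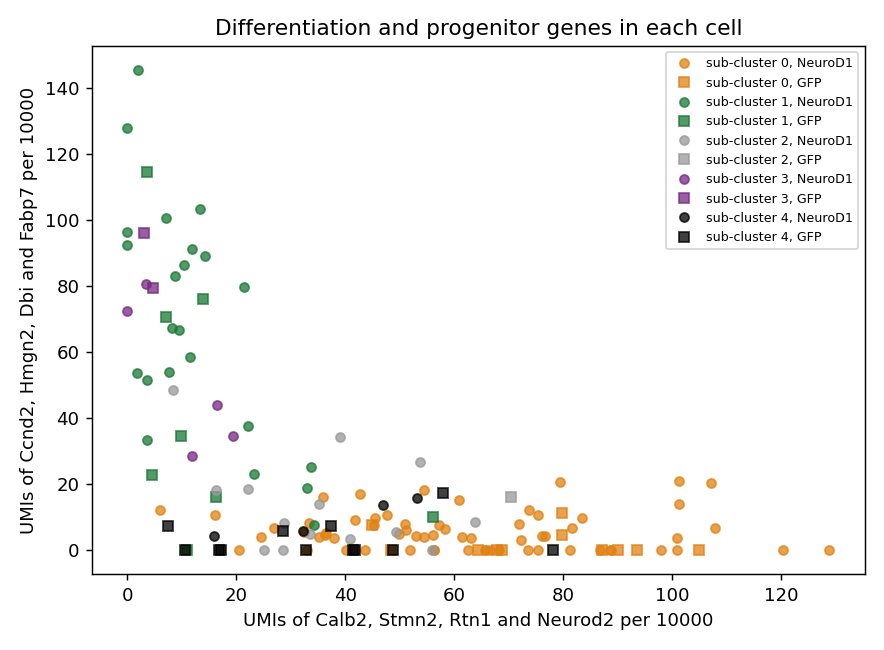
Each point is 1 chosen cell, with UMIs of Calb2, Stmn2, Rtn1 and Neurod2 per 10000 on the x axis and UMIs of Ccnd2, Hmgn2, Dbi and Fabp7 per 10000 on the y axis, coloured by sub-cluster, with circles for the NeuroD1 sample and squares for the GFP sample. Genes were picked after the sub-clusters were seen; the medians of sub-cluster 0 were 63.1 and 4.09, and those of sub-cluster 1 were 9.93 and 66.7, and cells of both libraries lay along both axes.

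Sub-cluster 4 was mixed and is left unnamed. It held 4 cells of the NeuroD1 sample and 12 of the GFP sample (3.64% and 35.3% of the chosen cells), with C1qa, a complement gene of microglia, at 607.4 CPM. Oligodendrocyte genes made up 0.919% of its UMIs, microglial genes 0.747% and endothelial genes 0.357%. Calb2 was still at 1056 CPM and Neurod1 at 1162 CPM in these cells. Over all chosen cells, 6 and 9 had at least 0.5% of their UMIs from lists of oligodendrocytes, microglia, lymphocytes and vascular cells. Without them the ratio of shares between the libraries was 3.65. Scrublet, which scores barcodes against simulated doublets, called 2 chosen cells of each library doublets.

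The next comparison was of the chosen cells between the libraries. Of 4362 genes whose sums over the chosen cells came to 20 UMIs or more over both samples, 834 (19.1%) were at least 2-fold higher in CPM in the NeuroD1 sample and 328 (7.52%) lower by as much. Of these genes, 97 had 0 UMIs in the GFP sample and 1 had 0 in the NeuroD1 sample, whose sum was the deeper. The median log2 ratio of all genes was 0.07. Genes near 20 UMIs can pass 2-fold through counting error alone, so the 834 and 328 are not counts of changed genes. One cell of the GFP sample held 10420 UMIs, 16.8% of the sum of its library. Its UMIs of selecting genes were 2 of Sox11 and 2 of Neurod2, and it had 0 of Igfbpl1, Neurod1 and Calb2. Without it, 896 of 4246 genes (21.1%) were higher by at least 2-fold and 293 (6.9%) lower. Leaving it out makes the sum smaller to which the GFP sample is scaled, and so lowers the ratio of every gene it did not hold.

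Most genes of the neuroblast state were within 2-fold of each other between the libraries. Calb2 had a ratio of NeuroD1 to GFP sample of 0.956 (0.727 to 1.28), Prox1 of 1.05 (0.615 to 1.92), Stmn2 of 1.13 (0.800 to 1.64) and Dpysl3 of 1.20 (0.845 to 1.76). Each of these intervals includes no difference, and their width does not show that the levels were equal. Without the deepest cell of the GFP sample the ratios were 0.795 (0.605 to 1.06) for Calb2, 0.875 (0.512 to 1.59) for Prox1, 1.02 for Stmn2 and 1.001 for Dpysl3. The dentate neuroblast list had a median log2 ratio of 0.18 over 17 read genes, of which 1 was at least 2-fold higher and 0 lower. That list is not free of the rule, since it has 20 genes and 14 of them stand outside the rule. None of the 8 selecting genes reached a 2-fold difference, and cells of both libraries were chosen by them. The counts for this list are therefore in part a description. The list of the neurite cytoskeleton had a median of 0.29 over 22 genes, of which 3 were at least 2-fold higher and 1 lower. The 19.1% of all genes is not set beside this, since that share changes with the UMIs required. At 50 UMIs, 188 of 1695 genes were higher by as much. Neurod1, the gene carried by the vector, was at 1011 CPM in the NeuroD1 sample and 1243 CPM in the GFP sample, a ratio of 0.814 (0.634 to 1.06), or 0.677 (0.528 to 0.878) without the deepest cell. Neurod1 also chose the cells, so this ratio is a description.

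Stmn1, Marcks and Dclk2 were the 3 cytoskeletal genes at least 2-fold higher in the NeuroD1 sample, and Dclk1, a microtubule-binding kinase related to Dcx, was the 1 lower. Without the deepest cell of the GFP sample, 4 were higher, namely Dclk1, Dclk2, Gap43 and Marcks, and 0 lower, with a median of 0.23. Dclk1 turned from a ratio of 0.492 (0.248 to 1.05) to 2.46 (0.628 to 21.1), and the growth cone protein Gap43, with 69 and 13 UMIs in all, had a ratio of 2.06 (0.839 to 6.53) without that cell. Stmn1, a tubulin-binding protein, common in dividing cells and newborn neurons, had 1473 UMIs in all 110 cells of the NeuroD1 sample and 112 UMIs in 25 of 34 cells of the GFP sample. Its ratio was 2.35 (1.94 to 2.88), or 1.96 (1.62 to 2.40) without the deepest cell, and it was 2.69 in all other kept cells. Marcks, a substrate of protein kinase C at the membrane, had a ratio of 2.37 (1.47 to 4.06) in the chosen cells, or 2.08 without the deepest cell, and 0.477 in the other cells. Tubb3 went the other way, with a ratio of 0.769 (0.613 to 0.974), or 0.647 (0.515 to 0.819) without that cell.

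Genes of intermediate progenitors had a median log2 ratio above the 0.07 of all genes, but its interval took in that value. The medians of the cell cycle and stem cell lists changed sign with 1 cell. The intermediate progenitor list had a median log2 ratio of 0.62 (-0.03 to 1.22 over its 11 read genes), or 0.36 without the deepest cell of the GFP sample. Over the alternative settings it ran from 0.15 at 10 UMIs to 0.64 without cells with 3 UMIs of precursor genes. Gadd45g, Mfap4 and Neurog2 were at least 2-fold higher, 3 of the 11 read genes, beside 19.1% of all genes. Without the deepest cell Gadd45g no longer was. Neurog2 had 34 UMIs in 12 of 110 cells of the NeuroD1 sample and 0 in 34 cells of the GFP sample, where a count of 0 allows up to 48.4 CPM. The cell cycle list had a median of 0.25 over 21 genes, with 4 at least 2-fold higher and 2 lower. These shares were near the 19.1% and 7.52% of all genes in the main setting. Without the deepest cell its median was -0.02, with 2 genes higher and 2 lower, and Mki67 and Stmn1 were no longer among the higher. As a mean over cells the median was -0.16, and -0.32 in cells with at least 5 UMIs of the selecting genes. The neural stem cell list had a median of 0.20 over 7 genes, or -0.06 without the deepest cell. Of the cell cycle genes, Mki67 had 40 and 3 UMIs and Mcm2, a helicase subunit of DNA replication, 12 and 9. Eomes had a ratio of 1.02 (0.516 to 2.24), or 0.849 without the deepest cell.

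Genes of mature neurons were lower in the NeuroD1 sample mainly through 1 cell. Of the 16 read genes of mature neurons and synapses, 9 were at least 2-fold lower and 0 higher, with a median log2 ratio of -1.27 (-2.91 to -0.24). Without the deepest cell of the GFP sample the median was -0.23, and 2 of 13 genes were at least 2-fold lower. That cell held 203 of the 217 Thy1 UMIs of its library, 37 of the 42 UMIs of Snap25, a protein of vesicle fusion, 79 of the 92 of Atp1b1 and 62 of the 78 of App. Thy1 is a neuronal surface protein whose promoter also drives the transgenes of the 5xFAD strain. Its ratio was 0.0116 with that cell and 0.149 (0.0658 to 0.337) without it, and Snap25 had 0.132 and 0.923. Slc17a7, Gria1 and Grin2b made up the 3 of 6 glutamatergic genes at least 2-fold lower, and without the cell only Gria1 did so, of 5.

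**Figure D4:**
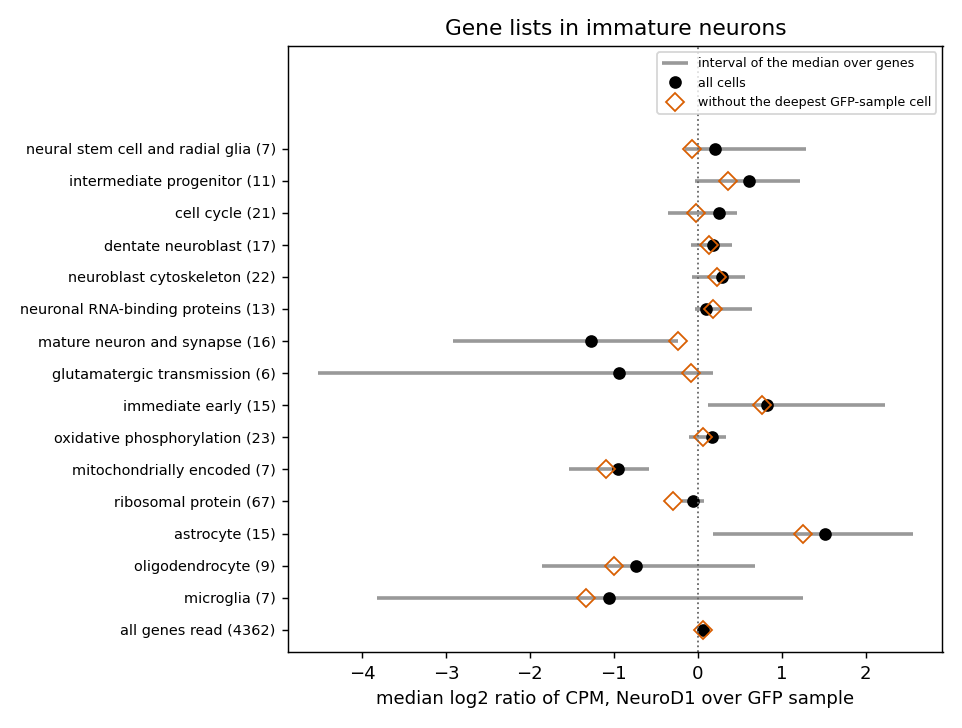
Median log2 ratio of CPM between the NeuroD1 and the GFP sample for gene lists in the chosen cells (black points), its interval from order statistics over the genes of the list (grey lines), and the median without the deepest GFP-sample cell (open diamonds), with the number of genes read in brackets. The mature neuron list moves from -1.27 to -0.23 without that cell, while the astrocyte list stays at 1.25 after 1.52.

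Astrocyte genes were higher in the chosen cells of the NeuroD1 sample. Of 15 read genes, 10 were at least 2-fold higher and 0 lower, with a median log2 ratio of 1.52 (0.18 to 2.56), or 0.54 without 3 cells. The list is not free of the rule, whose 1% ceiling uses 4 of its genes, and 1 of these, Slc1a3, is among the 10. In all other cells the list had a median of 0.47. Those 3 cells, all of sub-cluster 1, had over 20 UMIs of Gfap, the intermediate filament of astrocytes and stem cells, namely 79, 74 and 26 of the 189 in the library. They held 312, 298 and 118 of the 958 UMIs of Clu, which encodes the lipid carrier clusterin. Clu had 26 UMIs in the GFP sample, a ratio of 6.60 (4.47 to 10.2), and its log2 ratio of 2.70 was 0.76 without the 3 cells. Their UMIs of selecting genes numbered 22, 9 and 31, and the 4 astrocyte genes of the rule made up 0.685%, 0.903% and 0.938% of their UMIs, under its 1% ceiling. The 2 cells of the NeuroD1 sample and 1 of the GFP sample that met all but this ceiling were left out by it.

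Fos was among the genes with the largest difference. This immediate early gene had 275 UMIs in 58 of 110 cells of the NeuroD1 sample and 5 UMIs in 5 of 34 cells of the GFP sample, 794.5 and 80.7 CPM. The ratio was 9.85 (4.17 to 30.6), or 8.19 (3.47 to 25.4) without the deepest cell. A single cell held 70 of the 275 UMIs, and the rest came to 592.3 CPM. Other immediate early genes did not all go with it: Egr1 had a ratio of 0.895 (0.593 to 1.40) and Jun of 1.24 (0.928 to 1.68). Of the 15 read genes of that list, 7 were at least 2-fold higher and 0 lower, with a median of 0.83, and the median in all other cells was -0.32. The sign of this median did not hold: it was -0.26 after thinning to 500 UMIs, -0.23 without the 5 deepest cells of each library and -0.043 without cells with 0.5% of their UMIs from other cell types. Of the 38 UMIs of Atf3, 34 lay in 1 cell of the mixed sub-cluster 4, and that sub-cluster also held 58 UMIs of Klf2 in 3 cells and 30 of Nr4a1 in 2.

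The remaining genes with the largest differences were compared with the same genes in all other cells. Of the 15 highest, 6 were at least 2-fold higher in all other kept cells too, and of the 15 lowest, 8 were at least 2-fold lower there. Ttr, the transthyretin of the choroid plexus, had a ratio of 4.22 (3.57 to 5.04) in the chosen cells and 6.06 in the others, and was found in 110 of 110 and 26 of 34 chosen cells. The rule capped Ttr in the chosen cells, and the others include the choroid plexus cells, so these ratios are a description. Rsrp1, an arginine- and serine-rich protein, had ratios of 4.83 and 3.75, and Atp5g1, a subunit of ATP synthase, had 49 UMIs in 32 cells and 0 in the GFP sample, at least 2.92-fold, with 15.3 in the others. Fmc1, an assembly factor of ATP synthase, had 65 UMIs in 38 cells and 0, at least 3.88-fold, and Bag6, a chaperone, 74 UMIs in 52 cells and 1. In the others Bag6 had a ratio of 1.03. Hspb1, a small heat shock protein, had 71 of its 73 UMIs in 1 cell of the NeuroD1 sample, and Apod 282 UMIs in 18 cells, with 75.1 CPM outside its top cell against 64.6 CPM in the GFP sample. Both of these ratios rest on 1 cell.

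Microglial genes differed in both directions, more of them higher in the GFP sample. Of 7 read genes, C1qa, C1qb, Ctss and Tyrobp were at least 2-fold lower in the NeuroD1 sample and P2ry12 at least 2-fold higher, with a median log2 ratio of -1.06, against -2.24 in all other cells. P2ry12, a purinergic receptor of microglia, had 46 and 3 UMIs, a ratio of 2.75 (0.882 to 13.8). Tyrobp, an adaptor of microglial receptors, had 10 UMIs in 5 cells and 26 UMIs in 17 of 34 cells, a fold of 14.5 (6.78 to 33.8) for the GFP over the NeuroD1 sample. As a ratio of the NeuroD1 to the GFP sample this was 0.0688, and in all other cells 0.0774. Cd74, of antigen presentation, had 2 and 49 UMIs, of which 44 lay in 1 cell. The 12 microglial genes made up 0.0795% of the UMIs of the chosen cells in the NeuroD1 sample and 0.184% in the GFP sample, against 0.387% and 2.09% of the UMIs of all other cells, and the 9 lymphocyte genes were all at 0. In the chosen cells the microglial list ranged from 0 to 4.16% and from 0 to 0.971% per cell. Its part in the ratios was not tested. Mitochondrially encoded genes had a median log2 ratio of -0.95, with 3 of 7 read genes at least 2-fold lower, and -0.27 in all other cells.

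The last comparison was of the vector itself. Vector GFP was seen in 2 of 110 chosen cells of the NeuroD1 sample, 1.82% (0.221 to 6.41), and in 2 of 34 of the GFP sample, 5.88% (0.721 to 19.7). Among astrocytes it was seen in 4.88% (4.16 to 5.69) of 3176 cells and 62.3% (60.2 to 64.4) of 2082 cells. Microglia, which should not use the GFAP promoter, gave 0.213% and 7.76%, at median depths of 1854 and 1232 UMIs against 2624 and 1439 in the chosen cells. In the GFP sample the interval of the chosen cells took in the microglial share, so the share is not read as expression. In the NeuroD1 sample the interval began just above the microglial share and took in those of endothelial cells at 0.327%, oligodendrocytes at 0.766%, choroid plexus cells at 1.28%, oligodendrocyte precursors at 4.35% and astrocytes, so that 2 cells do not place it nearer to any of them. After thinning to 500 UMIs, 0 chosen cells of both libraries had a GFP UMI, where a count of 0 allows shares of cells with a GFP UMI of up to 2.73% and 8.82% at that depth, which is no limit on cells that carried the vector.

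**Figure D5:**
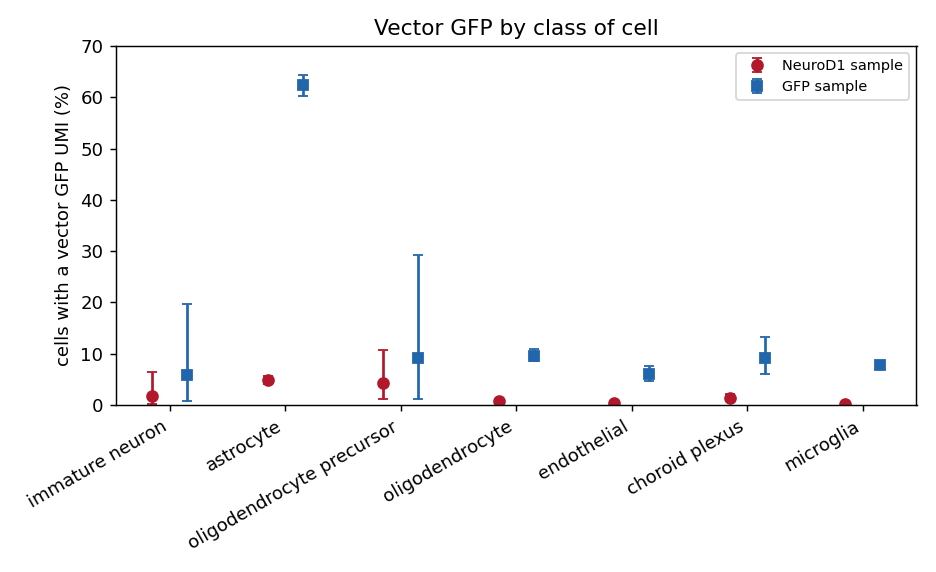
Share of cells with at least 1 UMI of vector GFP by class of cell, with 95% Clopper-Pearson intervals, for the NeuroD1 sample (red circles) and the GFP sample (blue squares). Astrocytes reach 62.3% in the GFP sample and 4.88% in the NeuroD1 sample, and the immature neurons are at 5.88% and 1.82%.

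The 4 chosen cells with vector GFP were unlike each other. In the NeuroD1 sample they were cells with 12123 and 5649 UMIs, with 2 and 4 GFP UMIs, and these were the cells with the 79 and 74 Gfap UMIs described above. The first held 12 UMIs of Igfbpl1, 3 of Eomes and 2 of Neurod1, and the second 9 of Igfbpl1 and 0 of Neurod1, and both had 0 of Calb2. In the GFP sample, 1 was the deepest cell, with 203 Thy1 UMIs. The other held 1751 UMIs, among them 5 of Igfbpl1, 3 of Neurod1 and 4 of Calb2, and lay in the mixed sub-cluster 4. ND1, the other feature of the vector in the files, had 0 UMIs in every class of cell examined, so it does not show which cells carried NeuroD1.

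Neurod1 was rare in the astrocytes of both libraries, and the choice of cells fixed this in part, since a cell with 3 or more UMIs of the selecting genes that met the rule, or failed only its astrocyte or Cajal-Retzius ceiling, was not counted as an astrocyte. Neurod1 had 9 UMIs in 9 of 3176 astrocytes of the NeuroD1 sample and 2 UMIs in 2 of 2082 of the GFP sample, 0.827 and 0.669 CPM. Astrocytes with both GFP and Neurod1 numbered 1 and 2. Through the same choice the astrocytes held at most 2 UMIs of the 8 selecting genes, and 3087 and 2068 of them held 0. The sources used here do not say whether reads of the vector insert were counted for the gene Neurod1.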

How the data were processed

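Single-cell RNA was measured in 2 libraries, 1 per group. Per the labels' protocols, hippocampus was dissociated with papain and cells were captured in a microwell chip on beads. The deposited matrices hold UMI counts, whole numbers per gene and barcode for 53717 features, which the authors did not normalize. FastQC, fastp, cutadapt, STAR and featureCounts and build mm39 are named without roles, per the submitters' processing notes. The sources used here do not give the authors' filters, and no deposited barcode had under 500 UMIs.

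Barcodes with under 200 genes or over 20% mitochondrial UMIs were removed (131 and 104). Doublets were kept, and their removal was an alternative. Counts of the chosen cells were summed per library and scaled to CPM. Levels have exact Poisson intervals, ratios exact conditional binomial intervals and shares Clopper-Pearson intervals, all at 95%. A depth of 346112 and 61953 summed UMIs makes the GFP sample the limit of precision, and UMIs of 1 library are not replicates. Genes were read between libraries at 20 UMIs in both sums together, list medians added 0.5 UMI to each sum, and a floor of 3 counts bounds a 0. Comparison classes were set by marker shares, astrocytes and the others at 1% of UMIs. Sub-clusters used 1500 variable genes, 10 components, 10 neighbours and Leiden at resolution 0.5, settings chosen after seeing the data. Software was scanpy 1.11.5, igraph 0.11.9, scipy 1.17.1, numpy 2.4.6 and Python 3.11.15. The scripts were tested on simulated data.

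Named between libraries are genes of the lists used and, among genes with 20 UMIs in 1 sum, the 15 highest and 15 lowest by the end of the ratio interval nearest to 1. Mitochondrial, ribosomal, haemoglobin, sex-linked and unnamed genes were left out of that ranking. The 25 shared genes were ranked by the lower of the 2 ratios to other cells. The members and lists were chosen with earlier results of these data known. Some genes that the rules would name are not reported here.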

Additional observations from a re-analysis of the deposited data

How the results depend on the processing

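With 1 library per group, leaving out a replicate gives no value, and depth in the 34 cells of the GFP sample limits every ratio. No paired analysis was possible because each group has 1 library and no test was run. The ratio of shares kept its direction in all 13 alternatives, between 2.05 and 4.04. At 10 UMIs, 1668 of 6995 genes read were at least 2-fold higher and 789 lower. At 50 UMIs these were 188 and 82 of 1695, and after thinning to 500 UMIs 89 and 46 of 658. The deepest GFP-sample cell lay in sub-cluster 0. Within that sub-cluster they were 520 and 205 of 1893, against 834 and 328 of 4362 in the main setting. Most of these alternatives change how many genes were read.

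Of 243 alternative list medians, 221 stayed within the interval of the main value, 18 moved and 4 reversed. The mature neuron median of -1.27 was -0.22 as a mean over cells, 0.13 in cells with at least 5 UMIs of the selecting genes, -0.16 without the 5 deepest cells of each library and -0.23 without the deepest GFP-sample cell. The immediate early median of 0.83 was -0.26 after thinning, -0.23 without the 5 deepest cells and -0.043 without cells with 0.5% of UMIs from other types, and the cause was not tested. After thinning, the dentate neuroblast median was -0.21, oxidative phosphorylation -0.19 and ribosomal protein -0.19. With at least 5 UMIs of the selecting genes, neural stem cell genes were at -0.33, glutamatergic genes at 0.39 and ribosomal protein at -0.33. Ribosomal protein was at -0.20 without the 5 deepest cells, where the cell cycle list was at 0.49, and at -0.30 without the deepest GFP-sample cell. Neural stem cell genes were at -0.19 without cells with 3 UMIs of precursor genes, and antigen presentation at -0.77 without Scrublet doublets. In sub-cluster 0 the dentate neuroblast list was at 0.67, cytoskeleton at 0.70, ribosomal protein at 0.72 and proneural factors at 0.40. The deepest GFP-sample cell, with 10420 UMIs, was 1 of the 11 GFP-sample cells there. No median of sub-cluster 0 was taken without it, so these values may lean on that cell.

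Of the named genes, 12 of the 15 highest and 8 of the 15 lowest kept a 2-fold difference in every setting that gave a value. Some settings gave none, as for Syt1 and Dcn without the deepest GFP-sample cell. Outside the top cell of the gene in each library, 14 and 10 kept a 2-fold difference, and 12 and 6 passed both checks. Hspb1, with 71 of its 73 UMIs in 1 cell, was among these 12. Snap25, Ndrg4 and App turned to 0.49, 0.68 and 0.45 on the log2 scale with at least 5 UMIs of the selecting genes. Apod turned to -1.01 without cells with precursor genes and -0.19 without those with UMIs of other types. The cause was not tested. The share with GFP was 0 and 0 after thinning, and resolution 1.0 gave 9 sub-clusters in place of 5.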

Other observations

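Other gene groups of the immature neurons were read between the libraries. Of all 4362 genes read, 19.1% were at least 2-fold higher in the NeuroD1 sample and 7.52% lower. The counts of the lists below are a description and were not tested against these shares. Of 10 read genes of cholesterol synthesis, 3 were at least 2-fold higher in the NeuroD1 sample, namely Insig1, Msmo1 and Srebf2, and 0 lower, with a median log2 ratio of 0.27, or 0.82 without the deepest GFP-sample cell. Of 14 genes of heat shock and protein folding, Atf4, Dnajb1, Hspb1 and Hspe1 were at least 2-fold higher and 0 lower, with a median of -0.10. Without the deepest GFP-sample cell the median was 0.26 and Hspa1a was at least 2-fold lower, and Hspb1 rests on 71 UMIs in 1 cell. All 23 genes of oxidative phosphorylation were read, with a median of 0.17, 1 gene at least 2-fold higher and 1 lower. Of 67 ribosomal protein genes, 2 were higher and 7 lower, with a median of -0.06, against -1.07 in all other cells. Of 13 glycolysis genes, 3 were at least 2-fold higher and 4 lower, and without the deepest GFP-sample cell 2 and 1 of 11.

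The 8 cells of the NeuroD1 sample and 1 of the GFP sample set aside by the Cajal-Retzius genes lacked several selecting genes but shared Calb2 with the chosen cells. Calb2 was at 923.6 CPM (538.0 to 1479) in 5 of the 8, against 956.3 CPM in the chosen cells, and had 0 UMIs in the 1 of the GFP sample. They had a median of 2200 UMIs in the NeuroD1 sample and 0 UMIs of Neurod1, Sox11 and Dcx in both. Nhlh1 was seen in all of them, and vector GFP in 2 of the 8 and in the 1 of the GFP sample.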
